A study of Triticum aestivum with 8 samples.

Results

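Accessible chromatin of roots was compared with that of shoot apices in hexaploid bread wheat (Triticum aestivum). The comparison covers 119387 root peaks and 131949 shoot apex peaks, 251336 of the 496486 peaks in the 4 tissue lists of the series. Each peak was classed as shared when it overlapped a peak of the other list by at least 1 bp, and otherwise as root-specific or apex-specific. A class therefore refers to these 2 lists only, and a root-specific peak may be open in another tissue. Roots and shoot apices both came from 2-week-old seedlings of the cultivar AiKang58. The seedlings grew at 22 °C in the 16 h of light and at 19 °C in the 8 h of dark, and the labels name no other treatment for these tissues. ATAC-seq, which uses a transposase to cut open DNA and tag it with sequencing adapters, was run on 2 libraries of each tissue. The labels of both libraries of a tissue cite 1 list, so every value below describes a list, no spread between replicates exists and no difference between the tissues was tested.

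Accessible regions in plants mark places where nucleosomes are sparse, mostly promoters and other regulatory DNA to which transcription factors bind. The root carries absorbing, conducting and meristematic tissues, whereas the shoot apex holds the shoot meristem and young leaf primordia, in which many cells divide. Bread wheat joins the subgenomes A, B and D of related ancestors. Each homoeologous group is a set of 3 chromosomes, 1 per subgenome, that descend from the same ancestral chromosome, and wheat chromosomes are gene-rich toward their ends and rich in repeats around the centromere.

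The root list covered 79.4 Mb and the shoot apex list 100.02 Mb, which is 0.564% and 0.711% of the 14065 Mb between the first base and the last peak of the 21 chromosomes. Root peaks had a median width of 500 bp (quartiles 325 and 800) and shoot apex peaks of 525 bp (quartiles 339 and 900). The narrowest peak had 201 bp in both lists. In roots 95.7% of the widths were multiples of 25 bp, and in shoot apices 95.5%, so differences of width below that step are not resolved. The lists give no height or read count and the depth is unknown, so a longer list can reflect deeper sequencing, and the absence of a peak does not show closed chromatin. In a tissue made of many cell types, fewer cells with an open region and weaker opening in each cell cannot be told apart.

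The first question was how much of the open chromatin of each tissue is also open in the other. By an overlap of 1 bp most peaks of both lists were shared, and the root list was contained in the apex list more than the reverse. Of the root peaks 78928 (66.1%, 95% Wilson interval 65.8 to 66.4) overlapped an apex peak, and of the apex peaks 77752 (58.9%, 58.7 to 59.2) overlapped a root peak. That left 40459 root-specific peaks (33.9% of the root list) and 54197 apex-specific peaks (41.1% of the apex list), or 0.747 root-specific peaks per apex-specific peak. With a reciprocal overlap of 50% the majority was lost in both lists: 45.4% of root and 41.1% of apex peaks were shared. These intervals and those below cover counting error over peaks only. The root share was above the apex share on 21 of 21 chromosomes, with 66.3 ± 2.07% in roots and 58.8 ± 1.33% in shoot apices (SD over 21 chromosomes, which are not replicates). The shared counts of the lists were nearly equal, and the root list was the shorter one on each chromosome (0.825 root peaks per apex peak on 6A to 0.969 on 3D). The direction on 21 of 21 thus follows largely from list length. The imbalance between the specific classes was smaller between lists of equal length. When the apex list was cut to its 119387 widest peaks, 44833 root-specific peaks faced 46393 apex-specific ones, a ratio of 0.966. The shares of shared peaks were then 62.4% in roots and 61.1% in shoot apices.

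Counted in bases, apex peaks covered 59.0% of the root bases and root peaks covered 46.8% of the apex bases. Root-specific peaks made up 21.9 Mb, or 27.6% of the root bases, and apex-specific peaks 30.7 Mb, or 30.7% of the apex bases. Merging both lists gave 169966 regions, of which 40459 (23.8%) had a peak in roots only, 54197 (31.9%) in shoot apices only and 75310 (44.3%) in both. The regions of both tissues held 60.3% of the merged bases, with a median width of 800 bp, against 400 bp for root-only and 425 bp for apex-only regions. A region of both tissues joins at least 2 peaks and is wider in part for that reason. Almost all shared peaks had a single partner. Only 2254 root peaks (1.89%) overlapped 2 or more apex peaks, and 3231 apex peaks (2.45%) overlapped 2 or more root peaks, with at most 6 partners in either list.

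The class of a peak depended on how much overlap was asked for. Where 50% of both peaks had to overlap, there were 65127 root-specific and 77689 apex-specific peaks. Among the 70107 pairs in which 1 root peak and 1 apex peak overlapped only each other, 0.391% overlapped by less than 100 bp. Of the specific peaks, 0.798% of the root-specific and 0.799% of the apex-specific ones had a peak of the other list within 100 bp. Within 500 bp the shares were 6.97% of root-specific and 9.26% of apex-specific peaks, and within 10 kb 51.0% and 62.5%. The median distance from a root-specific peak to the nearest apex peak was 9359 bp (quartiles 2124.5 and 53701). From an apex-specific peak to the nearest root peak it was 5180 bp (quartiles 1424 and 26732). The specific peaks thus include many that sit far from any peak of the other tissue: 15.6% of root-specific and 11.8% of apex-specific peaks lay more than 100 kb away, and 101 root-specific and 90 apex-specific peaks more than 1 Mb.

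The 2 specific classes also differed in how they sat among the peaks of their own list. Root-specific peaks lay a median of 3603 bp from the nearest other root peak, almost the same as the 3590 bp of shared root peaks. Apex-specific peaks lay a median of 1847 bp from the nearest other apex peak, against 2657 bp for shared apex peaks. In shoot apices the specific peaks were thus packed more closely beside other peaks of the tissue than the shared ones were, and in roots the medians were close.

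Specific peaks were narrow in both tissues. Root-specific peaks had a median of 400 bp (quartiles 300 and 625) and shared root peaks of 550 bp (350 and 875). Apex-specific peaks had a median of 425 bp (300 and 675) and shared apex peaks of 629 bp (375 and 1098). A width of 2 kb or more was reached by 1.42% of root-specific and 3.82% of shared root peaks, and by 1.78% of apex-specific and 7.56% of shared apex peaks. The 573 root-specific and 962 apex-specific peaks of this size are the wide regions seen in only 1 of these 2 lists.

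The share of peaks with a partner grew with width in both lists, and at the same width a root peak had a partner more often than an apex peak. In the narrowest of 5 width classes (201 to 300 bp) 50.9% of root peaks (interval 50.3 to 51.6) and 42.7% of apex peaks (42.1 to 43.3) were shared. In the middle class (426 to 625 bp) the shares were 67.2% of root peaks (66.6 to 67.7) and 55.9% of apex peaks (55.3 to 56.5). Among the widest peaks (961 bp and more) the lists came close, with 80.1% of root peaks (79.5 to 80.6) and 78.6% of apex peaks (78.1 to 79.1). A wide peak overlaps another more easily by its length alone, and the part of this in the trend was not tested. Root peaks were matched against the longer list (131949 peaks over 100.02 Mb) and apex peaks against the shorter one (119387 peaks over 79.4 Mb). The part of list length in the difference at the same width was not tested.

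**Figure D1:**
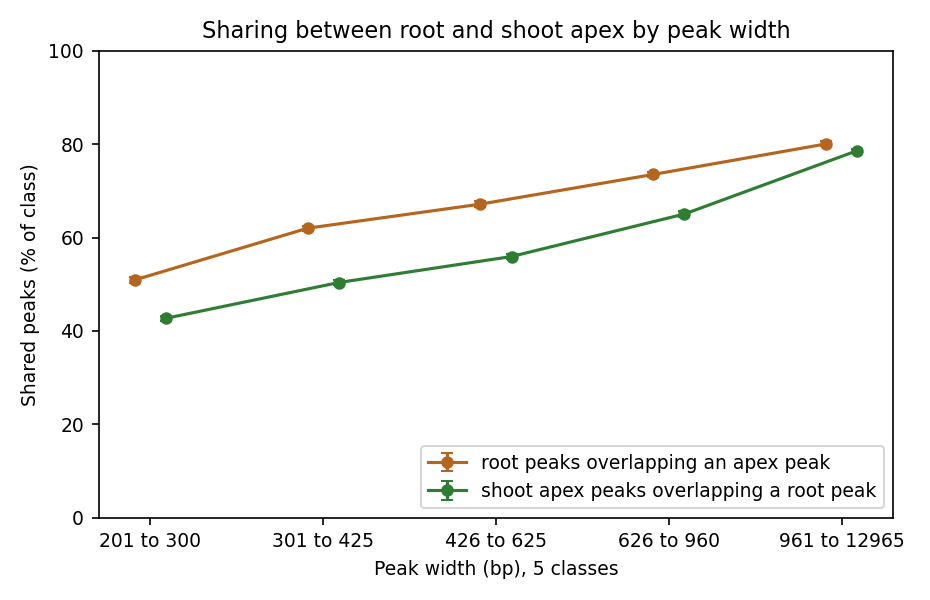
Percentage of root peaks (brown) and shoot apex peaks (green) that overlap a peak of the other list, in 5 classes of peak width in bp; bars are 95% Wilson intervals over peaks. Both lines climb with width, from 50.9% to 80.1% in roots and from 42.7% to 78.6% in shoot apices, and the root line lies above the apex line in each class.

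Where both tissues had a peak, the apex peak was usually the wider one. In the 70107 one-to-one pairs the root peak had a median width of 525 bp and the apex peak of 625 bp. The apex peak was wider in 55.9% of the pairs, the root peak in 37.8% (interval 37.4 to 38.2), and 6.25% had equal width. The median log2 ratio of root to apex width was -0.12 (quartiles -0.64 and 0.24), and it was below 0 on 21 of 21 chromosomes. The share of pairs with a wider root peak ranged from 34.4% on 4B to 40.7% on 3D. A median of 96.0% of the root peak lay under its partner, and 84.6% of the apex peak under its own. The root peak lay wholly inside the apex peak in 37.0% of the pairs and the apex peak inside the root peak in 22.9%. Midpoints were a median of 76.5 bp apart (quartiles 24.5 and 176.5), and 397 pairs had identical edges.

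Close to the chromosome ends the widths were more even. In the outermost 1% of the chromosome length the root peak was wider in 44.1% of 3395 pairs (interval 42.4 to 45.7) and the apex peak in 49.7%, with a median log2 ratio of 0. Between 10 and 20% from the end the root peak was wider in 36.2% of 15913 pairs (35.5 to 37.0), with a median log2 ratio of -0.14.

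**Figure D2:**
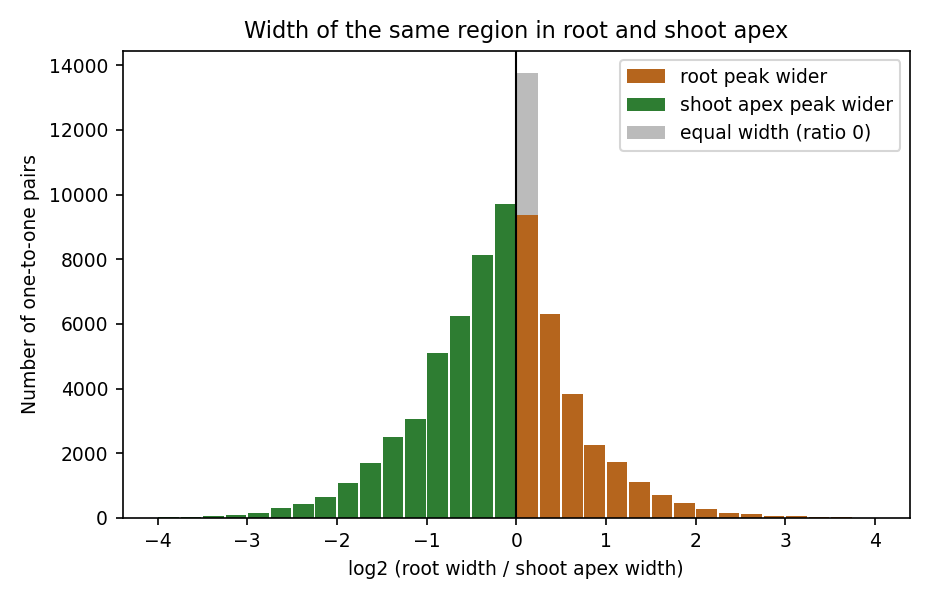
Number of one-to-one pairs by the log2 ratio of root to shoot apex width, in steps of 0.25, with ratios beyond 4 in either direction placed in the outermost bars. Bars left of 0 are pairs with the wider apex peak (55.9%), brown bars right of 0 pairs with the wider root peak (37.8%), and the grey top at 0 the 6.25% of equal width.

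Some single regions departed far from this. The pair with the largest root excess lay on 7B, where a root peak from 292831126 to 292843175 (12050 bp, the widest of the root list) met an apex peak of only 350 bp. The next lay on 5B, with a root peak of 8875 bp from 691425013 to 691433887 and an apex peak of 225 bp. The pair with the largest apex excess lay on 4A, where an apex peak from 38361839 to 38374763 (12925 bp) held a root peak of 625 bp. The next lay on 7A, with a root peak of 425 bp inside an apex peak of 9975 bp from 268177070 to 268187044. By the 1 bp rule these 4 places count as shared, although most of the open stretch appears in 1 tissue.

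The widest root-specific peak spanned 10600 bp on chromosome 4B, positions 585957887 to 585968486. It was followed by a peak of 8250 bp on 1B (667079581 to 667087830) and a peak of 7300 bp on 1D (408236697 to 408243996). The nearest apex peaks were 54099, 15993 and 7421 bp away. Among apex-specific peaks a stretch of 9100 bp on 3A (356525605 to 356534704) was the widest, before 7751 bp on 1D (465394891 to 465402641) and 7650 bp on 4A (650055618 to 650063267). Their nearest root peaks were 943, 7689 and 2309 bp away. After the peak on 7B, the widest shared root peaks spanned 11787 bp on 6D (5176567 to 5188353) and 9900 bp on 2B (792987719 to 792997618), each over 6 apex peaks. The widest shared apex peak spanned 12965 bp on 2A (680351847 to 680364811) over 3 root peaks. It was followed by the peak of the 4A pair above and by 12875 bp on 6B (685957792 to 685970666) over 2 root peaks. Positions follow the deposited lists and count from 1. The sources used here name no genome build for them, so no gene was assigned to a peak and no sequence is shown.

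The next question was where along the chromosome the classes lie. Root-specific peaks were the most distal class, while the place of apex-specific peaks relative to shared ones depended on the rule. The outer 20% of the length at either end held 65.7% of root-specific peaks (interval 65.3 to 66.2) and 62.1% of apex-specific peaks (61.7 to 62.5). Shared root peaks had 62.05% there (61.7 to 62.4) and shared apex peaks 61.9% (61.5 to 62.2). The median distance to the nearer end was 80.2 Mb for root-specific peaks, 96.8 Mb for apex-specific peaks, 95.9 Mb for shared root peaks and 96.3 Mb for shared apex peaks. The outermost 2.5% at each end held 15.7% of root-specific peaks (15.4 to 16.1) and 12.2% of apex-specific peaks (11.97 to 12.5), against 12.8% of shared root peaks and 12.7% of shared apex peaks. Apex-specific minus shared apex peaks came to 0.231 points in the outer 20%, to 2.45 points with a reciprocal overlap of 50%, and to -1.50 points among peaks of at least 500 bp. The difference between root-specific and apex-specific peaks was 3.64 percentage points in the outer 20% and 5.92 points in the outer 10%. Over all peaks of each list, specific and shared together, the outer 20% held 63.3% of root and 61.95% of apex peaks. The whole lists thus differed by 1.35 points in the same direction.

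Over all chromosomes together the gradient sat in the outer 10% of the length. Within 0.5% of an end there were 1357 root-specific and 1318 apex-specific peaks, a ratio of 1.03 (interval 0.954 to 1.11). The ratio was 0.917 (0.883 to 0.952) between 2.5 and 5% and 0.750 (0.726 to 0.774) between 5 and 10%. From 10% inward it stayed between 0.648 and 0.722. Single subgenomes were less regular. On D the ratio was 0.828 between 5 and 10%, 0.794 between 10 and 15% and 0.662 between 45 and 50%. In the same bins it was 0.766, 0.690 and 0.807 on B, and 0.671, 0.599 and 0.673 on A. Seen from each list, the shared share of root peaks was 58.8% (57.2 to 60.5) within 0.5% of the end and 68.7% (67.9 to 69.5) between 15 and 20%. The shared share of apex peaks was 59.4% (57.7 to 61.1) and 58.5% (57.7 to 59.3) in the same bins and stayed between 58.0 and 60.3% in all 13. Sharing thus varied with position in the root list and hardly in the apex list. The relative length of the lists varied too, with 1.01 root peaks per apex peak within 0.5% of the end and 0.869 between 15 and 20%. A root list that is longer relative to the apex list has a lower shared share at similar shared counts. The part of this in the trend was not tested.

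**Figure D3:**
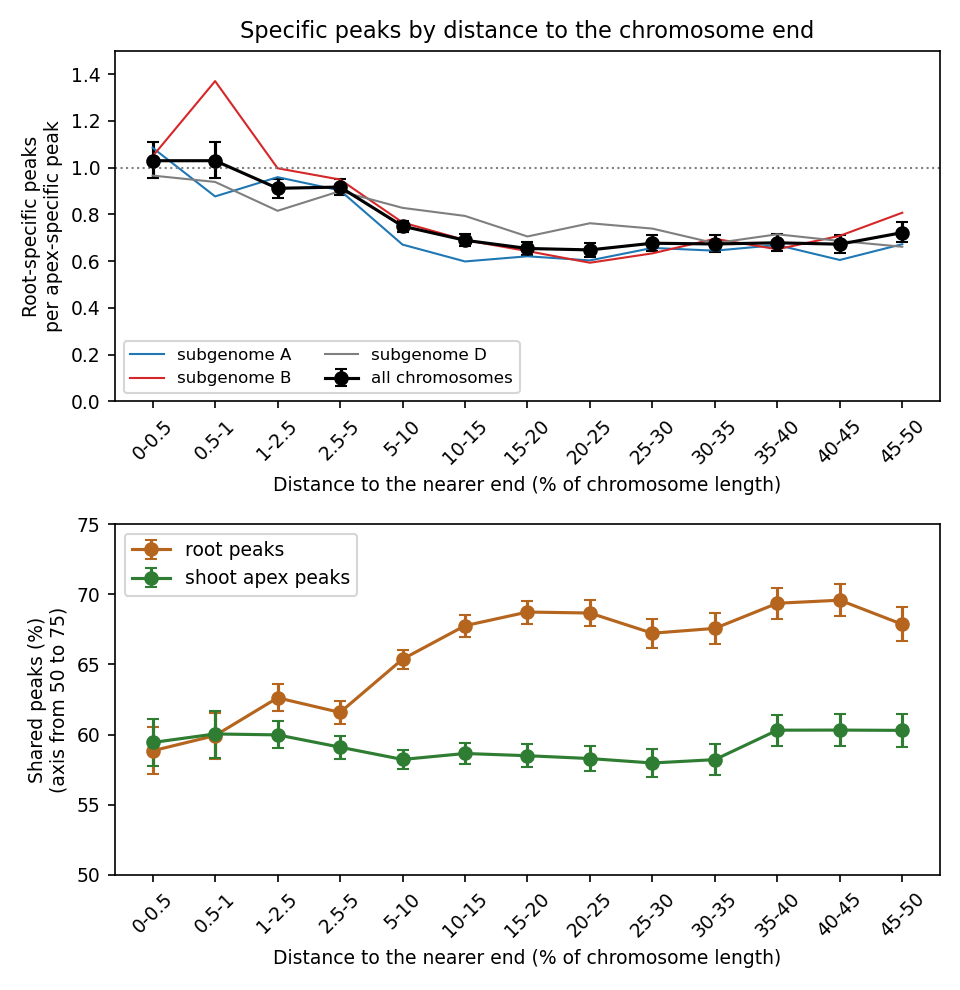
Top, root-specific peaks per apex-specific peak in 13 bins of distance to the nearer chromosome end (percent of length), for all chromosomes with 95% intervals (black) and for each subgenome; the dotted line marks equal numbers. Bottom, percentage of root (brown) and shoot apex (green) peaks that are shared, on an axis from 50 to 75%. Over all chromosomes the ratio is 1.03 at the end and at most 0.722 beyond 10%. The shared share of root peaks is 58.8% at the end and 68.7% between 15 and 20%, while that of apex peaks stays between 58.0 and 60.3%.

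The distal excess of root-specific peaks was larger among wide peaks. In the narrowest class (201 to 300 bp) 62.7% of root-specific and 60.7% of apex-specific peaks were in the outer 20%, a difference of 1.98 points. Among peaks of 961 bp and more the shares were 73.5% of 4053 root-specific and 64.8% of 6407 apex-specific peaks, a difference of 8.70 points. The outermost 2.5% held 20.1% of these wide root-specific peaks and 12.5% of the wide apex-specific peaks.

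Root-specific peaks were more distal than apex-specific peaks on 18 of 21 chromosomes, with a mean difference of 3.55 ± 3.80 points (SD over 21 chromosomes). The largest difference was on 3B, with 68.2% of root-specific and 56.9% of apex-specific peaks in the outer 20%. The 3 exceptions were 5A (54.4% of root-specific and 58.03% of apex-specific peaks), 5D (52.5% and 54.7%) and 4B (64.5% and 66.1%). Group 5 was the only group in which the direction was opposite over its 3 chromosomes together, at -1.04 points. Group 3 had the largest difference, at 8.26 points. Against shared root peaks, root-specific peaks were more distal on 19 of 21 chromosomes (mean difference 3.59 ± 3.15 points). Apex-specific peaks were more distal than shared apex peaks on 13 of 21, by a mean of 0.236 ± 2.14 points.

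The third question was whether the specific peaks fall evenly on the 3 subgenomes. The specific peaks of both lists were spread nearly as all peaks of their list were. Subgenome D held 34.7% of root-specific peaks and 34.2% of all root peaks, B 33.4% and 32.6%, and A 31.9% and 33.3%. In shoot apices D held 33.1% of specific peaks and 33.6% of all peaks, B 32.95% and 32.5%, and A 33.9% of both. There were 0.782 root-specific peaks per apex-specific peak on D (interval 0.765 to 0.799), 0.757 on B (0.740 to 0.774) and 0.702 on A (0.686 to 0.718). The log2 ratio relative to the whole genome was 0.07 on D, 0.02 on B and -0.09 on A. The mean ratio was 0.775 ± 0.0909 on D, 0.754 ± 0.0687 on B and 0.700 ± 0.0943 on A (SD, 7 chromosomes each). D was above A in 6 of 7 groups (mean difference 0.0748 ± 0.118) and B above A in 6 of 7 (0.0539 ± 0.137), with group 4 the exception in both.

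Per Mb of chromosome, specific peaks of both kinds were densest on D, as were all peaks (10.3 root and 11.2 apex peaks per Mb on D, against 7.51 root and 8.28 apex peaks on B and 8.05 and 9.07 on A). Root-specific density was 3.52 ± 0.438 peaks per Mb on D, 2.59 ± 0.339 on B and 2.60 ± 0.304 on A (SD, 7 chromosomes). Apex-specific density was 4.55 ± 0.291 on D, 3.44 ± 0.313 on B and 3.73 ± 0.353 on A. The shared share of root peaks was 65.8 ± 1.71% on D, 65.3 ± 1.69% on B and 67.6 ± 2.28% on A. That of apex peaks was 59.4 ± 1.51% on D, 58.2 ± 1.32% on B and 58.9 ± 1.08% on A.

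Single chromosomes differed more than subgenomes or groups. Apex-specific peaks outnumbered root-specific ones on 21 of 21 chromosomes, on each of which the apex list was also the longer one. The ratio ran from 0.573 to 0.886. It was highest on 3D, with 2359 root-specific and 2664 apex-specific peaks (0.886, interval 0.838 to 0.936), and on 7D with 2440 and 2793 (0.874), followed by 4A with 1959 and 2359 (0.830). The order of 3D and 7D is not settled: relative to the whole genome, the log2 ratio by bases was 0.26 on 3D and 0.31 on 7D. It was lowest on 6A, with 1222 root-specific and 2134 apex-specific peaks (0.573, 0.534 to 0.614), then on 4B with 1427 and 2362 (0.604) and on 1A with 1512 and 2406 (0.628). On 5A it was 0.630, inside the interval of 1A. Among peaks of at least 500 bp the log2 ratio of 1A relative to the whole genome was -0.10, against -0.25 over all peaks, and 5A (-0.30), 4D (-0.24) and 6D (-0.14) lay below it. Over whole groups the ratio was highest in group 7 (0.827, 0.800 to 0.854) and lowest in group 6 (0.672, 0.648 to 0.698). Group 7 was the only group with its 3 chromosomes above the ratio of the whole genome. The widest split within a group was in group 4, where 4A stood at 0.830, 4D at 0.649 and 4B at 0.604. Chromosome 4A is known to have been rearranged in evolution by inversions and by exchanges with 5A and 7B, so its ends do not correspond simply to those of 4B and 4D.

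**Figure D4:**
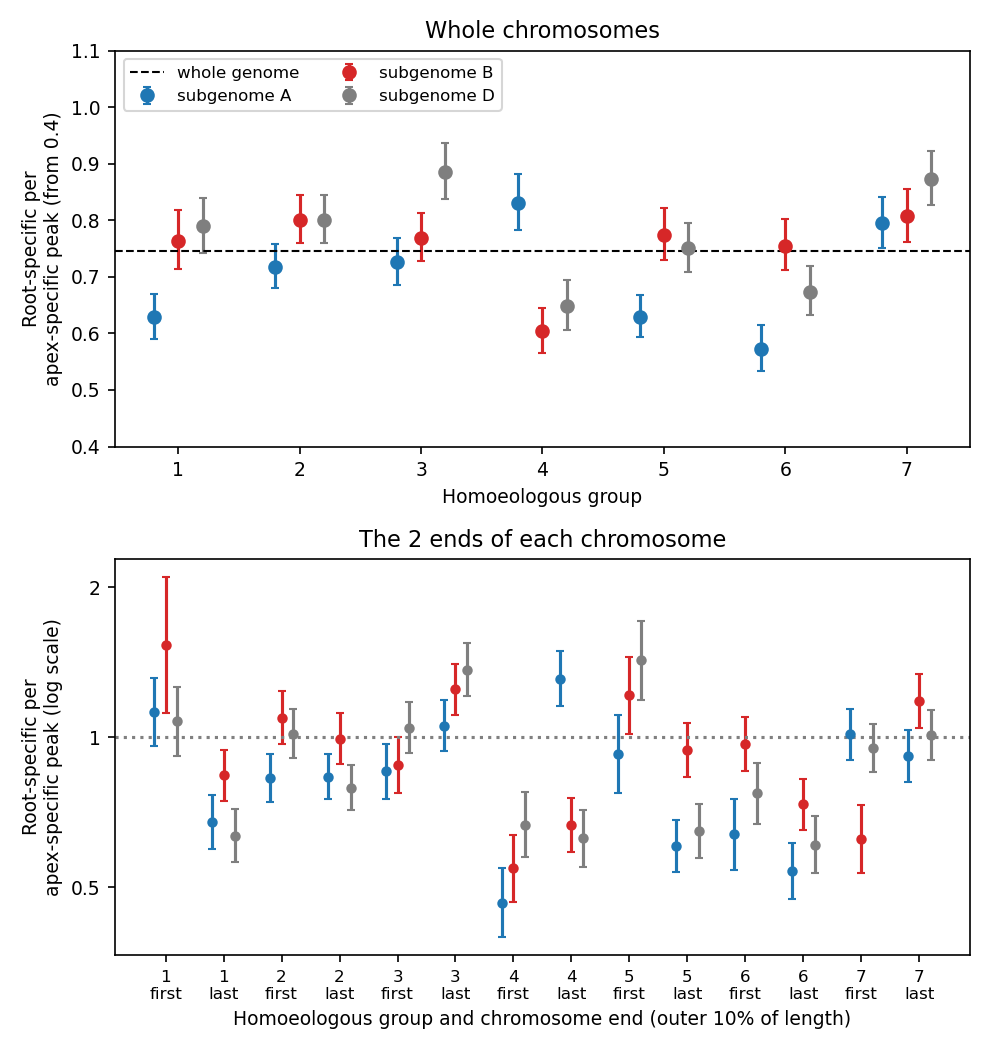
Root-specific peaks per apex-specific peak with 95% intervals, for whole chromosomes (top, axis from 0.4, dashed line at the whole-genome ratio of 0.747) and for the outer 10% at the first and the last end of each chromosome (bottom, log scale), by homoeologous group and subgenome. Whole chromosomes run from 0.573 on 6A to 0.886 on 3D, and single ends from 0.466 to 1.53.

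The 2 ends of a chromosome often differed. In the outer 10% at each of the 42 ends the ratio of root-specific to apex-specific peaks ranged from 0.466 to 1.53, while the part further in ranged from 0.514 to 0.813 over the 21 chromosomes. At 15 ends root-specific peaks were the more numerous, with the whole interval above 1 at 7 of them, and at 21 ends the whole interval lay below 1. The first end in the coordinate order of 1B had the highest ratio, but with only 98 root-specific and 64 apex-specific peaks (1.53, interval 1.12 to 2.10). The next highest were the first end of 5D (280 and 196 peaks, 1.43, 1.19 to 1.71), the last end of 3D (610 and 446, 1.37, 1.21 to 1.55) and the last end of 4A (548 and 418, 1.31, 1.15 to 1.49). The lowest was the first end of 4A, with 224 root-specific and 481 apex-specific peaks (0.466, 0.397 to 0.546). Chromosome 4A thus had an end far on the root side and an end far on the apex side.

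Corresponding ends of a homoeologous group lay on the same side in some groups and not in others. At the first end of group 1 and the last end of group 3 the 3 chromosomes each had more root-specific peaks by count. The ratios were 1.12 on 1A (interval 0.959 to 1.31), 1.53 on 1B and 1.08 on 1D (0.917 to 1.26). In group 3 they were 1.06 on 3A (0.937 to 1.19), 1.25 on 3B and 1.37 on 3D. The intervals of 1A, 1D and 3A include 1, so the side of these ends is not settled. Of the 329 root-specific and 293 apex-specific peaks at the first end of 1A, its first Mb held 38 and 0. At 6 of the 14 group ends the 3 chromosomes each had more apex-specific peaks by count. Among them were both ends of group 6 (0.538 to 0.970) and the last end of group 1 (0.635 to 0.839). The intervals of the first end of 6B and of the last ends of 2B and 5B include 1. The side of these ends is not settled either. The other 6 group ends had chromosomes on both sides by count. In group 5 the first ends had 0.926 on 5A, 1.21 on 5B and 1.43 on 5D, and the last ends 0.605, 0.942 and 0.648.

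At the scale of 1 Mb the 2 lists differed by less than 2-fold in most of the windows compared, with single windows that departed strongly. A peak of either list was present in 13403 windows, and the 8627 with at least 10 peaks in the 2 lists together were compared. Of these, 363 (4.21%) had at least 2-fold more root than apex peaks and 708 (8.21%) at least 2-fold more apex than root peaks. Counts were not scaled to list length, and the whole lists held 0.905 root peaks per apex peak. The cut thus lay nearer to the average toward shoot apices than toward roots. A 2-fold difference is easily reached with few peaks. In the 1414 windows of at least 40 peaks, 18 (1.27%) passed it toward roots and 29 (2.05%) toward shoot apices. Over all 8627 windows, 53.2% were in the outer 20% and 7.60% in the outer 2.5%. Of the windows on the root side, 56.5% were in the outer 20%, with an interval (51.3 to 61.5) that includes the share of all windows. The outer 2.5% held 10.5% of them. Windows on the apex side were less often near the ends, with 42.7% (39.1 to 46.3) in the outer 20% and 1.98% in the outer 2.5%.

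The largest root excess was in the first Mb of 1A, with 42 root and 4 apex peaks. Each of the 4 apex peaks was shared, and 38 of the root peaks had no partner. The next were on 2D from 9000001 to 10000000, with 52 root and 18 apex peaks, and on 6D from 3000001 to 4000000, with 72 root and 42 apex peaks. The largest apex excesses were on 2D from 13000001 to 14000000, with 53 root and 92 apex peaks, and on 7D from 4000001 to 5000000, with 75 root and 114 apex peaks. On 7D nearly all root peaks of that window were shared (67 of 75), while 50 apex peaks had no partner. The third was on 7D from 538000001 to 539000000, with 9 root and 40 apex peaks. Of these 6 windows, 5 lay within 2.07% of the chromosome length from an end, and the last at 15.7%.

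**Figure D5:**
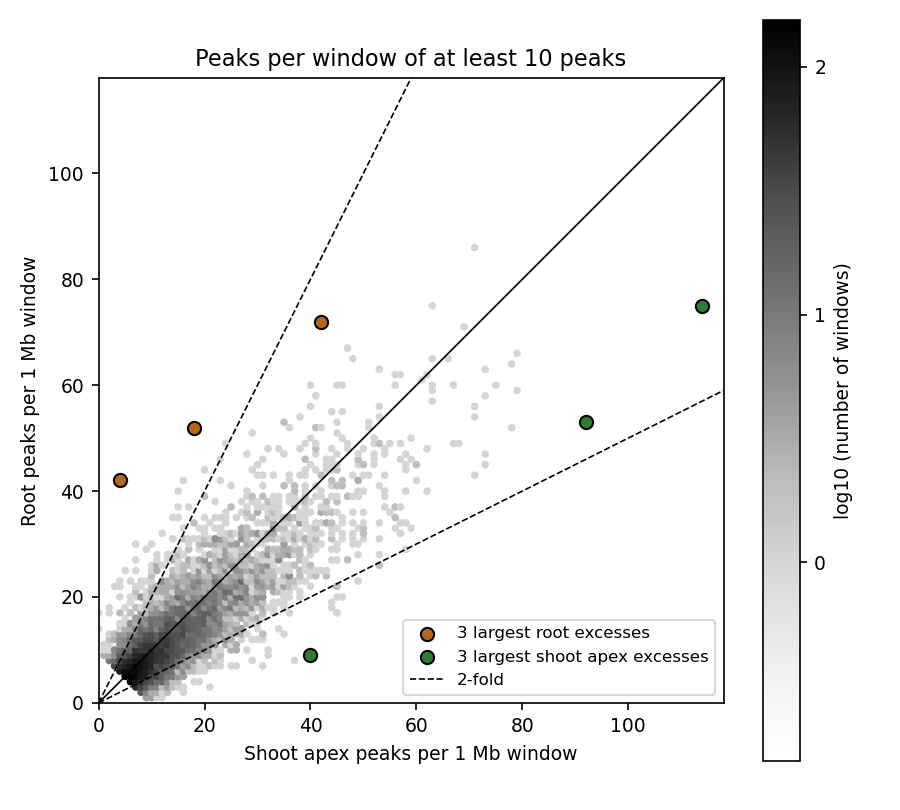
Root peaks against shoot apex peaks per 1 Mb window, for the 8627 windows with at least 10 peaks; the grey scale gives the log10 number of windows at a point, the solid line equal numbers and the dashed lines a 2-fold difference. Most windows lie between the dashed lines. The 3 windows with the largest root excess (brown) and the 3 with the largest apex excess (green) are marked, and 3 of these 6 lie beyond a 2-fold line.

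Specific peaks also came in unbroken runs, in which neighbouring peaks of both lists in order were all specific to the same tissue. Of the root-specific peaks 39.5% stood alone and 15.1% belonged to the 943 runs of 5 or more. Of the apex-specific peaks 36.4% stood alone and 14.0% belonged to the 1229 runs of 5 or more. Runs of 10 or more numbered 87 in roots, with 1086 peaks, and 58 in shoot apices, with 667 peaks, although the apex-specific class is the larger. The longest root-specific run held 20 peaks on 3B from 30081209 to 31068718, over 988 kb. The longest apex-specific run held 22 peaks on 7A from 619597693 to 620288488, over 691 kb. The next longest runs, named after their values were seen, varied in density. An apex-specific run of 18 peaks on 5A from 548603345 to 549216528 spanned 613 kb. Runs of 19 peaks were tighter: a root-specific run on 1B from 676955276 to 677036493 spanned 81.2 kb and another on 6D from 3915881 to 4075543 spanned 160 kb, and an apex-specific run on 2D from 6828291 to 6948305 spanned 120 kb.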

How the data were processed

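The authors deposited 1 peak list per tissue, with chromosome, start and end and no other value. The list stands for both libraries of the tissue, per the labels. Trimmomatic 0.36, Bowtie2, MACS2 and bedtools are named in the submitters' processing notes. For the genome build, the peak threshold and the way replicates were combined, the sources used here give nothing. Only the root and shoot apex lists were compared. Both hold no repeated or overlapping peaks. Starts were read as 0-based. The last peak end of the 2 lists served as chromosome length. Overlaps were computed in Python 3.11.15 with numpy 2.4.6, tested on simulated data and against bedtools 2.31.1. Positions are midpoints. Intervals of ratios were converted from the Wilson interval of the share of root-specific among specific peaks. Regions were named by rank of width, width difference, window difference, run length and chromosome ratio. The comparison, members and rules were chosen with earlier results of these data known. Alternatives were a 50% reciprocal overlap, sharing across gaps of at most 500 bp, peaks of at least the median width of both lists (500 bp), equal list lengths, the outer 10%, bases in place of peaks, other windows and leaving out each homoeologous group. The 5 width classes for distal shares and the windows of at least 20 and 40 peaks were chosen after seeing the data.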

Additional observations from a re-analysis of the deposited data

How the results depend on the processing

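No paired analysis was possible because a list holds 1 set of peaks for both libraries, which also kept each replicate from being left out. Depth is unknown and limits every comparison of list sizes. Under each alternative run, root-specific peaks stayed more distal than apex-specific peaks and than shared root peaks. With a 50% reciprocal overlap, 45.4% of root and 41.1% of apex peaks were shared and 65127 root peaks were specific. The root peak was wider in 39.7% of pairs. The median specific minus shared width was -100 bp in roots and -75 bp in shoot apices. The distal difference was 2.66 points for root-specific minus apex-specific, 5.11 for root-specific minus shared and 2.45 for apex-specific minus shared peaks, and the log2 ratio on A was -0.055. Across gaps of at most 500 bp, 68.5% of root and 62.7% of apex peaks were shared, the width differences were -125 and -200 bp, and apex-specific minus shared was -0.346 points, the opposite sign. Among peaks of at least 500 bp, 61.0% of root peaks and 50.3% of apex peaks were shared, leaving 23319 root-specific and 35472 apex-specific peaks, and the root peak was wider in 32.8% of pairs. The distal differences were 2.20 points for all peaks, 4.85 for root-specific minus apex-specific, 3.10 for root-specific minus shared and -1.50 for apex-specific minus shared. The log2 ratio turned to -0.015 on B, -0.025 on 3B and -0.034 on 6B, and by bases to -0.034 on 6B. With equal list lengths 62.4% of root and 61.1% of apex peaks were shared and the root peak was wider in 34.9% of pairs. In the outer 10% the differences were 2.05, 5.92, 5.76 and -0.099 points in the same order. Apex-specific peaks are therefore not shown to lie further out or further in than shared ones. Of 2763 windows of 5 Mb, 11 had a 2-fold root excess and 57 a 2-fold apex excess, and with peaks of at least 500 bp alone 245 and 720 of 4837 windows of 1 Mb had one. The numbers were 115 and 212 among the 4611 windows of at least 20 peaks and 18 and 29 among the 1414 of at least 40. In the 5 width classes, narrow to wide, root-specific minus apex-specific was 1.98, 2.13, 4.28, 5.83 and 8.70 points. Without each homoeologous group in turn it was 2.76 to 4.37 points. The range was 1.01 to 1.58 for all peaks, 3.18 to 4.46 for root-specific minus shared and -0.053 to 0.601 for apex-specific minus shared, negative without group 4. The log2 ratio was -0.14 to -0.071 on A, -0.0013 to 0.049 on B, negative without group 6, and 0.0495 to 0.085 on D. The root peak was wider in 37.6 to 38.02% of pairs. The cause of these changes was not tested. Chromosomes kept their side of the whole-genome ratio at 21 of 21 under 50% reciprocal overlap and gaps, 20 by bases and 19 among peaks of at least 500 bp.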

Other observations

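On 2D and 6D, windows with a large root excess and a large apex excess lay a few Mb apart near the same chromosome end. These windows were chosen after their values were seen. On 2D the 5 windows from 9000001 to 14000000 held 52, 35, 40, 31 and 53 root peaks and 18, 22, 39, 40 and 92 apex peaks, so the difference of root minus apex peaks changed from 34 in the first to -39 in the last. On 6D the 5 windows from 3000001 to 8000000 held 72, 31, 41, 33 and 18 root peaks and 42, 33, 44, 59 and 44 apex peaks, with differences of 30, -2, -3, -26 and -26. A neighbour with a 2-fold root excess was found beside 6.24% of all 8627 windows, and a neighbour with a 2-fold apex excess beside 11.0%. Of the 363 windows with a 2-fold root excess, 50 (13.8%) had a neighbour with a root excess and 26 (7.16%) a neighbour with an apex excess. Of the 708 windows with a 2-fold apex excess, 110 (15.5%) had a neighbour of the same kind and 27 (3.81%) a neighbour with a root excess. Windows of 10 to 19 peaks had a root excess in 6.18% and an apex excess in 12.4%. In windows of 40 or more peaks the shares were 1.27% and 2.05%. Neighbours were not compared at equal peak number, so these shares do not show that such windows cluster.

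By subgenome, the ratio of root-specific to apex-specific peaks between 0.5 and 1% from the end was 1.37 on B (470 and 343 peaks), 0.939 on D (476 and 507) and 0.877 on A (406 and 463). Between 10 and 15% it was 0.690 on B, 0.794 on D and 0.599 on A. In the outermost bin, 0 to 0.5% from the end, it was 1.05 on B, 0.966 on D and 1.09 on A, so the order of the subgenomes differed between neighbouring bins. These differences were not tested.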
